A study of Mus musculus with 4 samples.

Results

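The open regions described here are the 1000 most widely open peaks away from promoters, of 93513 peaks measured in individual long-term hematopoietic stem cells (LT-HSCs). They were selected on the number of cells with a count: of the 76711 peaks that lay more than 1000 bp from every GENCODE start of a protein-coding transcript, the 1000 with the most such cells were taken. The 75711 other non-promoter peaks and the 16802 promoter peaks served for comparison. Accessibility was measured by single-cell ATAC-seq, in which the Tn5 transposase inserts adapters into open DNA, and each count is a cut site in a peak.

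The labels name 4 samples in 4 groups, all of LT-HSCs from C57BL/6JRj mice. LT-HSCs with high (CLCA3A1high) and with low (CLCA3A1low) surface CLCA3A1 were sorted by antibody from old mice aged 22 to 28 months, and the labels of this pair name the table of 93513 peaks and 1454 cells. The samples labelled young (3 to 4 months) and old (22 to 28 months) were not analysed here, since no label names their table and the rows of the other table carry no peak names. Each sample was pooled from 4 mice with 2500 cells from each mouse, so there is no biological replicate. The barcodes carry 1 of 2 suffixes, called barcode set 1 (818 cells) and barcode set 2 (636 cells), and the labels do not say which suffix belongs to which sample. Values are therefore given for both sets without a group, and a difference between the sets is a difference between those libraries with no test and no direction between CLCA3A1high and CLCA3A1low cells. No barcode sequence occurred in both sets.

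The cells held 22871046 counts in peaks, with medians of 13358 per cell in set 1 and 12755 in set 2 and a range of 224 to 136173. At promoters of LT-HSC markers, a median of 16.7% of cells held a count over 10 genes, led by Gata2. The medians were 7.91% for 5 endothelial, 4.47% for 6 erythroid, 3.92% for 6 B cell, 1.96% for 6 T cell and 0.0688% for 6 neutrophil and monocyte markers. A gene that was the nearest to no promoter peak with a count entered as 0, which was so for 1 LT-HSC (Ly6a), 2 erythroid, 1 B cell, 3 T cell and 3 neutrophil and monocyte markers. Single markers of other lineages exceeded the LT-HSC median, up to 24.1% at Klf1 (erythroid), 20.5% at Cd3d (T cell) and 18.5% at Pax5 (B cell). At this depth a cell without a count at a peak may still have been open there.

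Open chromatin away from promoters is found mostly at enhancers, which are bound by transcription factors and act on genes at a distance. It is also found at insulators bound by CTCF, at the starts of non-coding RNAs, and at genes read by the other RNA polymerases. RNA polymerase I transcribes the repeated ribosomal DNA (rDNA) units that give the large ribosomal RNAs, and RNA polymerase III transcribes the tRNA genes from promoter boxes inside the gene. In blood stem cells, enhancers are commonly bound by RUNX1, GATA2 and members of the ETS family such as FLI1, ERG and PU.1.

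The members range from rDNA over peaks at no annotated start to known stem cell enhancers, and these sequences (GRCm38, plus strand) show that range. In the most widely open member, the rDNA peak, the stretch richest in CpG at chr17:39848434-39848553 held 23 CpG in 120 bases. The stretch richest in CpG of the 15th-ranked member, 52576 bp upstream of Wnt7b at chr15:85634447-85634566, held 15. Capitals mark CpG.
rDNA: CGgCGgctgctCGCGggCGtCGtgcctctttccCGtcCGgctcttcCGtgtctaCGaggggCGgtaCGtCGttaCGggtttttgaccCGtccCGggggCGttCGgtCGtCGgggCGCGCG
Wnt7b: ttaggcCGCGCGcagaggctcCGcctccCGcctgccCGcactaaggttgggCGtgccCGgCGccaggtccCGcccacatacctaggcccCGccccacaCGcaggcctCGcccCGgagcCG

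For 5 members near genes of stem cell control or with the largest differences between the barcode sets, the 150 bases with the most matches to the words for RUNX factors (TGTGGT), the AP-1 dimers (TGANTCA), PU.1 itself (GAGGAAGT), other factors of the ETS family (CCGGAAGT) and the family of GATA factors (AGATAA) are shown. These are chr16:92800890-92801039 in Runx1, chr5:107759317-107759466 upstream of Gfi1, chr16:95436848-95436997 in Erg, chr16:91969494-91969643 upstream of Atp5o and chr10:62543444-62543593 upstream of Srgn. Capitals mark a word on either strand. The Runx1 and Gfi1 stretches each held 1 RUNX and 1 GATA word, the Erg stretch 2 adjacent AP-1 words beside 1 ETS and 1 RUNX word, the Atp5o stretch 2 AP-1 words and the Srgn stretch 1 RUNX word.
Runx1: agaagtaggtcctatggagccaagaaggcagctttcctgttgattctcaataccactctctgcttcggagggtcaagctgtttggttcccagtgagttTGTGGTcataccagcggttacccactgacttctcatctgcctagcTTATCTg
Gfi1: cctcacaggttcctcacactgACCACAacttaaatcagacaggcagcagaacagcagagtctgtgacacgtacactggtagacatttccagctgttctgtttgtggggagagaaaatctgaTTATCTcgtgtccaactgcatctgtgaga
Erg: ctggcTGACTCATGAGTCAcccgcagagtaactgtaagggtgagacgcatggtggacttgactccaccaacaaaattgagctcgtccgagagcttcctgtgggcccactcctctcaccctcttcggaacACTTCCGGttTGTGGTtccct
Atp5o: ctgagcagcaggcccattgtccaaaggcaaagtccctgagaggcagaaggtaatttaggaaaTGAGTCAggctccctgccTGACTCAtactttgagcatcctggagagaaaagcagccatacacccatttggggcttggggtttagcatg
Srgn: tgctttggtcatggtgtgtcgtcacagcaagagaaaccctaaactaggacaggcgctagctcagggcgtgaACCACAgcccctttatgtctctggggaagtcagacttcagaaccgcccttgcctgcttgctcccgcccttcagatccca

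The members were open in 340 to 1303 cells, that is in 23.4% to 89.6% of all cells, with a median of 409 cells. These values chose the members and are given as a description. At the threshold, 18 non-promoter peaks had 340 cells, of which 2 were members by their order in the table. The peaks nearest to Tram1 (871 counts) and B4galt5 (957 counts) were the last inside, and those nearest to Vav3 (918 counts) and Pde4b (942 counts) came next outside. The openness fell steeply at the top of the ranking and slowly after it: 20 members were open in over 50% of cells, against 370 promoter peaks. Of the promoter peaks, 5149 (30.6%) had at least 340 cells.

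**Figure D1:**
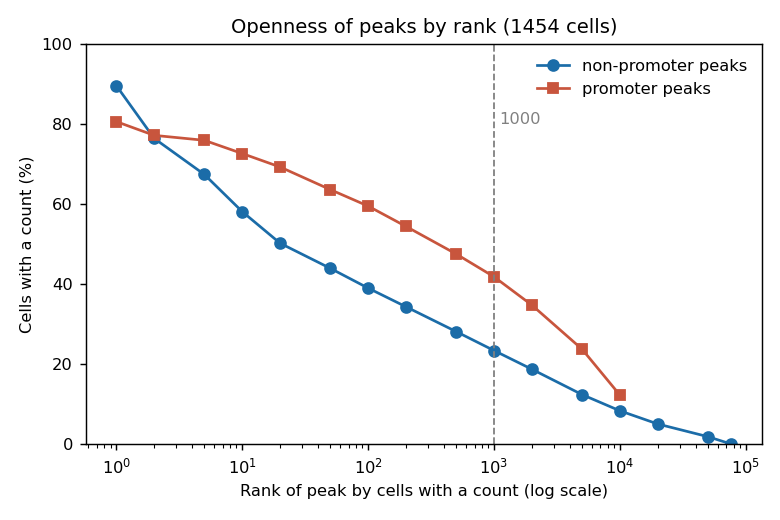
Share of the 1454 cells with a count (%, y axis) against the rank of a peak (log scale, x axis) for non-promoter and promoter peaks; the dashed line marks rank 1000. The curve of the non-promoter peaks starts at 89.6% and reaches 23.4% at rank 1000, where promoter peaks were at 41.8%.

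The members made up 1.07% of peaks and took 5.81% of counts (95% Clopper-Pearson interval 5.80% to 5.82%). The share was 5.90% in set 1 (5.89% to 5.91%) and 5.70% in set 2 (5.68% to 5.71%). Nearly all counts of a member in a cell were even numbers (97.4% of 440484), as 2 cut sites usually come from 1 fragment. The intervals cover counting error only and, with paired counts, are too narrow. With each cell thinned to 4899 counts, a median of 197 members per cell held a count in set 1 (quartiles 179 and 209, 749 cells) and of 193 in set 2 (174 and 207, 560 cells), so that the sets overlapped over most of their range. Without thinning the medians were 294 and 284.

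Ribosomal DNA led the members. The peak chr17:39842796-39849035 (6240 bp) overlaps the annotated rRNA gene CT010467.1 and the long non-coding RNA genes Gm26917, Gm42418 and AY036118. Its match of 2475 bp at 100% identity is no separate evidence, since the rRNA genes searched include this one. The peak was open in 92.1% of the cells of set 1 and in 86.5% of those of set 2. It held 50614 counts, 38.8 per open cell and 8.18 times the counts of the next member, and 3.81% of all counts in members. A mouse genome carries many copies of the rDNA unit, of which the reference holds few. The part of copy number in these counts was not tested.

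The rDNA counts were spread unevenly over the cells. In set 1 the median cell held 16 rDNA counts (quartiles 6 and 40, highest 1430), and in set 2 it held 10 (quartiles 4 and 26, highest 2166). As a share of the cell's own counts, the medians were 0.132% (quartiles 0.0563% and 0.262%) and 0.0826% (quartiles 0.0311% and 0.184%), so the sets overlapped widely. The 82 cells of set 1 with the most rDNA counts held 56.2% of them, and the 64 such cells of set 2 held 58.8%. On CPM (counts per 1000000 counts of the set, plus 1), the log2 ratio between sets, set 1 over set 2, was 0.52. Counted once per cell it was 0.03, and with cells of over 3 times the median counts left out it was 0.46.

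No member matched mitochondrial DNA, and no other member matched ribosomal RNA genes over at least 100 bp at 80% identity. Besides rDNA, 3 members exceeded 5 counts per open cell. The peak at the long non-coding RNA 4932412D23Rik held 5.57 counts. It also overlaps Zbtb20, which encodes a zinc finger repressor, and a RefSeq mRNA start of that gene. The peak over Neat1, the RNA that builds nuclear paraspeckles, held 5.84, and that over the non-coding genes Gm26887 and Gm37352 held 5.10. Counts per open cell grew with the number of open cells in all members, so each member was set beside the median of its 50 neighbours in rank. Of all members, 5 exceeded these by 1.5 times: rDNA (10.5 times), 4932412D23Rik (1.51), Neat1 (1.59) and 2 short peaks.

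These short peaks were named after their values were seen. The peak chr11:109011446-109012298 (853 bp, nearest gene Axin2) was open in 443 cells and held 4.71 counts per open cell, 1.64 times the level of its neighbours, with up to 106 counts in a cell. The peak chr9:35305018-35305795 (778 bp, in the long non-coding RNA Gm33838) held 4.52 in 346 cells, 1.72 times its neighbours, with up to 102 counts in a cell. The median over members of the highest count in a cell was 12. No further copy of these peaks at 90% identity over 200 bp was found on the assembled chromosomes, with repeats masked, and 59.4% of the bases of the chr9 peak were masked.

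**Figure D2:**
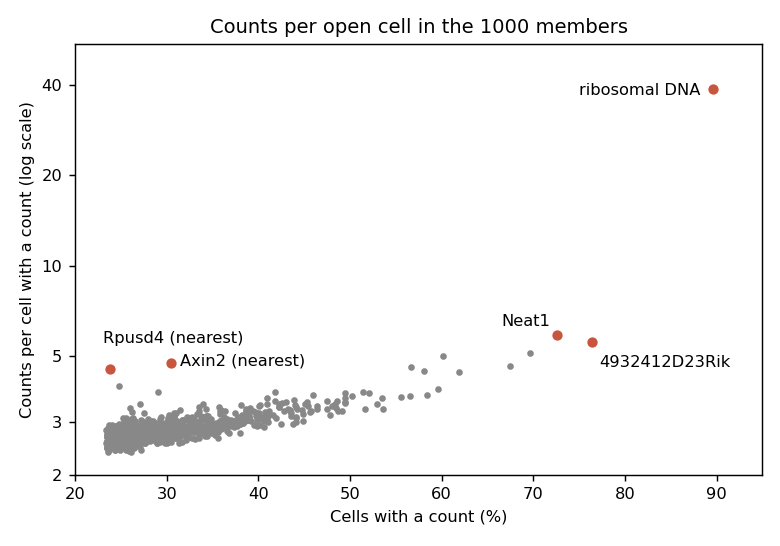
Counts per cell with a count (log scale, y axis) against the share of cells with a count (%, x axis), 1 point per member, with the 5 members that exceed 1.5 times the level of their neighbours in rank in red. The rDNA point stands at 38.8 counts per open cell, and the median of the members was 2.79.

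Copied sequence was rare. More members than next peaks held some, but these were not compared at like width. Copies elsewhere in the assembled genome (at least 90% identity over 200 bp) were found for 49 members and for 25 of the next 1000 non-promoter peaks. They covered at least 50% of 16 of those next peaks and likewise of 16 members. Among them, 3 peaks at chr17:17234173-17235519, chr17:17004463-17005657 and chr17:16950929-16951924, near the zinc finger genes Zfp97 and Zfp960, each had 9 copies over 100% of their length. They held 2.64, 2.53 and 2.46 counts per open cell, which is 0.913, 0.911 and 0.947 times the level of their neighbours. In 14 of the 16, the counts per open cell were 0.911 to 1.04 times those of the neighbours. The other two were the peak chr3:5860151-5861021 near Gm8797, at 1.48 times with up to 44 counts in a cell, and the peak chr9:123461602-123462384 in Lars2, at 1.204 times. Soft-masked repeats took a median of 13.2% of a member, against 10.95% of other non-promoter peaks, but only 5 members (0.5%) were masked over more than 50% of their length, against 4.49% of the others. The widest of these was also the widest member, chr17:3006849-3023879 (17031 bp, 52.1% masked, nearest gene Scaf8), open in 422 cells.

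Members were wide. Their median width was 1938 bp (quartiles 1435 and 2740 bp), against 475 bp for other non-promoter and 1517 bp for promoter peaks. Of the 41246 non-promoter peaks of up to 500 bp, 0 were members, whereas 67.2% of the 58 peaks over 5000 bp were. A wide peak can collect cut sites in more cells, so width and openness cannot be told apart by this rule. Ranked by cells per kb of width, 400 of the members were chosen again, with a median width of 1043 bp. Per kb, members held 577 counts with rDNA included, other non-promoter peaks 207 and promoter peaks 425. The rule chose members for counts in many cells, whereas all promoter peaks were taken, so these values are a description only.

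The members lay a median of 18478 bp from the nearest protein-coding start (quartiles 7140 and 46908 bp), against 21747 bp for other non-promoter peaks. The centre of 43.7% was intergenic, of 38.4% in an intron, of 13.3% in a non-coding gene, of 2.6% in a coding and of 2.0% in a UTR exon. Of the other non-promoter peaks, 50.05% were intronic, 7.05% in non-coding genes and 37.9% intergenic. Among peaks of 1435 to 2740 bp, 38.6% of 500 members and 51.1% of 3803 others had their centre in an intron. By chromosome, members were 1.87% of the non-promoter peaks on chromosome 17 and 1.81% on chromosome 15, with 0.870% on chromosome X and 0 of 9 on chromosome Y. The share on all chromosomes together was 1.30%.

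Many members were starts of another kind. Of the members, 309 (30.9%) lay within 1000 bp of a non-coding gene's start, a RefSeq mRNA start or another transcript start of a coding gene, or on a tRNA gene, against 10.3% of other non-promoter peaks. The share was 90% in the 20 most widely open members, 35% at ranks 21 to 100, 33.5% from there to rank 500 and 25.8% from there to rank 1000. CpG-rich sequence (CpG ratio of at least 0.6 and GC of at least 50%) was found in 22.3% of the members at such a start and in 3.04% of the others. Among peaks of 1435 to 2740 bp, 18.0% of members and 11.1% of other non-promoter peaks lay at a non-coding gene's start, and 6.8% and 5.57% at a RefSeq mRNA start.

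Starts of non-coding genes were the largest such class, with 190 members (19.0%, against 5.13% of other non-promoter peaks), of which 72 were at lincRNA, 23 at antisense and 10 at miRNA genes. The peak at 4932412D23Rik was open in 1111 cells, that over Neat1 in 1056 and that over Malat1, an abundant nuclear RNA, in 875. The peaks at Gm26887 (1012 cells), Gm7461 (980 cells), Gm5112 (867 cells), 6720427I07Rik (750 cells) and Gm15287 (730 cells) belong to non-coding genes known by identifiers only. Host genes of small RNAs were also found: Mir22hg, the host of miR-22, in 900 cells, and Snhg8, a host of snoRNA, in 747 cells. Lncpint, a long non-coding RNA induced by p53, was open in 845 cells, and a start of a non-coding transcript annotated to Zswim6 in 757 cells. This Zswim6 peak also lies at a RefSeq mRNA start of the gene, as the 4932412D23Rik peak does at one of Zbtb20.

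The remaining peaks of the top 20 lay mostly at starts that the protein-coding GENCODE set does not hold. The peak at chr8:69715258-69717684 (849 cells) lies at a RefSeq mRNA start of Zfp869, and that at chr2:34904472-34905763 (822 cells) at another RefSeq start in Phf19. The peak in Spaca6 (779 cells) lies at a further transcript of a coding gene. The 2 members of the top 20 at no annotated start lay 52576 bp upstream of Wnt7b (777 cells, CpG ratio 0.577) and 23012 bp downstream of the start of Prkci (769 cells, CpG ratio 0.328). Both differed little between sets, with 53.9% and 52.8% of cells for the former and 53.5% and 52.0% for the latter.

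**Figure D3:**
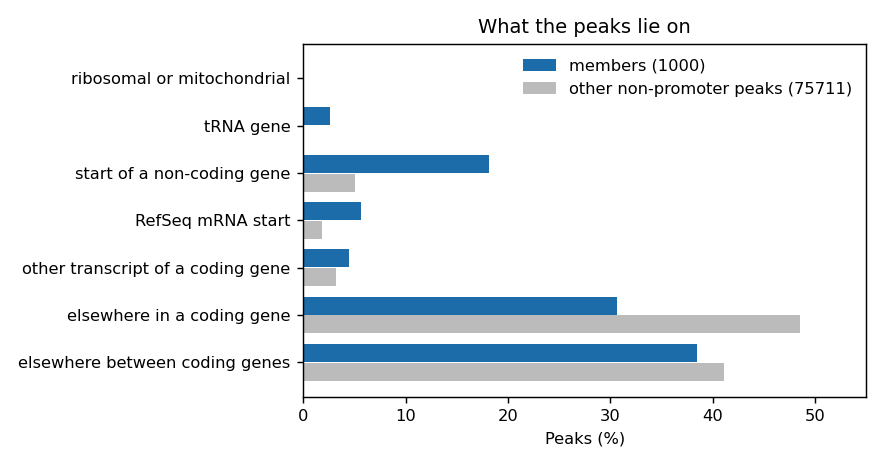
Share of peaks (%, x axis) in each of 7 exclusive classes for the 1000 members and the 75711 other non-promoter peaks. Starts of non-coding genes hold 18.1% of members after rDNA and tRNA genes are set aside, against 5.10% of the others, and peaks elsewhere in a coding gene 30.6% against 48.5%. A peak at both a non-coding gene's start and a RefSeq mRNA start was counted under the former.

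Several of these members carry miRNA hairpins. Of the 1005 hairpins in the RefSeq table, 12 lay in 9 members. The member at Vmp1 and Mir21a (chr11:86576990-86588352) was open in 56.7% of cells, that at Mir210 in 32.0%, that at the cluster of Mir23a, Mir27a and Mir24-2 in 28.0%, that at Mir33 in Srebf2 in 26.5% and that at Mirlet7i in 25.9%. The 23 mature miRNAs had 23 different seeds, so no group shared a seed. The arms known as the main ones are shown as RNA from RefSeq (GRCm38.p6), with the seed, bases 2 to 8, in capitals.
miR-21a-5p: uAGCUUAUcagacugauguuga
miR-210-3p: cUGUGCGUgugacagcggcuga
miR-23a-3p: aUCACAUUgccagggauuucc
miR-27a-3p: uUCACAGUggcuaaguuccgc
miR-24-3p: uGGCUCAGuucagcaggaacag
miR-33-5p: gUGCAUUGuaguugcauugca
let-7i-5p: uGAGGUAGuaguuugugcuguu

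The log2 ratios of the members with these miRNA hairpins, set 1 over set 2, were -0.10 at Mir21a, 0.16 at Mir210, 0.38 at the Mir23a cluster, -0.38 at Mir33 and 0.06 at Mirlet7i. All lay within 2-fold, as did 990 of the 1000 members.

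Peaks at tRNA genes were often members. Of the 112 non-promoter peaks on a RefSeq tRNA gene, 26 (23.2%) were members, against 1.30% of all non-promoter peaks. In peaks of 1435 to 2740 bp, 2.8% of members and 0.894% of other non-promoter peaks overlapped a tRNA gene. The 26 members held 56 whole tRNA genes, with 12 of them holding 1 gene and up to 5 genes in a peak. The widest open was the peak chr2:122374958-122379068 near Shf, with 3 tRNA-His genes and 638 cells, and the next was chr11:48852532-48859640 near Irgm1, with genes of tRNA-Leu, tRNA-Pro, tRNA-Thr and tRNA-Val.

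The word GTTCNANNC, the core of the B box by which RNA polymerase III finds tRNA genes, was present in 54 of the 56 genes on their own strand. On either strand it was present in 60.0% of all members and in 24.3% of all peaks. Members are wider than most peaks, and the shares of this word were not compared at like width. The tRNA-His gene at chr2:122377363-122377434, on the minus strand, and the tRNA-Val gene at chr19:12011931-12012003, on the plus strand in the member near Olfr1423, are shown 5′ to 3′ with that word in capitals.
tRNA-His: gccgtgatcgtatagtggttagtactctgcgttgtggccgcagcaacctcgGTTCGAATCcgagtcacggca
tRNA-Val: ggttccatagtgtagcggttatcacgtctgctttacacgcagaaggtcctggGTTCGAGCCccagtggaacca

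The tRNA members went both ways between sets. Their log2 ratios lay between -0.40 and 0.45, with quartiles of -0.09 and 0.12 and a median of 0.00. The lowest was the member near Olfr1423, with 5 tRNA genes, open in 36.7% of the cells of set 1 and in 39.9% of those of set 2 (counting interval -0.54 to -0.27). The highest was the member nearest to Psma3, a proteasome subunit gene, open in 30.4% and 23.9% (counting interval of the log2 ratio 0.28 to 0.63). All 26 lay within 2-fold, as did 990 of the 1000 members.

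Members near stem cell transcription factors were found in 4 of the 7 genes of the heptad, a group of factors that bind together in blood stem cells. In all, 9 of the 158 non-promoter peaks nearest to these genes were members (5.70%), against 1.30% of all. Wide peaks were members more often, and the shares of this and the other gene lists were not compared at like width. Runx1 had 3, Lmo2 had 3, Fli1 had 2 and Erg had 1, while Gata2, Tal1 and Lyl1 had none. The Runx1 peak at chr16:92800484-92802470, in an intron 24301 bp downstream of the nearest start, overlaps the RefSeq +23 enhancer and was open in 33.0% of the cells of set 1 and in 30.03% of set 2. The other Runx1 members were open in 30.4% and 29.6% of all cells, the Fli1 member in an intron (chr9:32505776-32510961) in 30.2% and the Erg member in 29.4%.

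The Lmo2 members differed among themselves. Lmo2 encodes a bridging protein of the complex of TAL1 and GATA factors. The peak 26173 bp upstream was open in 27.8% of cells of set 1 and in 18.1% of set 2 (log2 ratio 0.65), the peak 11982 bp upstream in 24.0% and 28.5% (log2 ratio -0.41), and the intronic peak in 27.1% and 24.5% (log2 ratio -0.09). All lay within 2-fold. Over the 9 members of the heptad the log2 ratio had a median of 0.10, beside 0.03 over all members.

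Of 22 other regulators of stem and progenitor cells, 5 had members: 9 of 503 peaks (1.79%). Zfp36l2, which encodes a protein that destabilises mRNAs, had 3, and its most widely open member (chr17:84111950-84120560, 71692 bp downstream of the start) was open in 36.3% of cells of set 1 and in 48.9% of set 2 (log2 ratio -0.64). A further Zfp36l2 member overlaps a VISTA enhancer in RefSeq and had a log2 ratio of -0.53, with 38.0% and 44.8% of cells. The Gfi1 member, in an intron of Evi5 33474 bp upstream of the start of this repressor, overlaps the enhancer fragment RefSeq names after its distance from Gfi1, and was open in 37.8% and 33.0% of cells. Cbfa2t3, a corepressor, and the homeobox gene Meis1 had 2 members each, and Prdm16 had 1.

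Among 18 surface genes of stem and progenitor cells, 6 had 1 member each of 182 peaks (3.30%). Cxcr4, the receptor that holds stem cells in the marrow, had the most widely open, 22797 bp upstream, in 32.2% of cells of set 1 and in 35.5% of set 2. Kit, the receptor of stem cell factor, followed with 32.3% and 31.3%. The Kit member lay 156081 bp downstream of the nearest start of Kit, in the non-coding gene Gm43101. Itga2b, Itga6 and Cd34 were among the others. The peaks nearest to Clca3a1, the gene of the sorted surface protein, held no member.

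Immediate early genes, which respond fast to signals, and genes of AP-1 had the highest share of the 9 lists: 9 of 107 peaks (8.41%), near 7 of 12 genes. The Fos member 18194 bp upstream (chr12:85454729-85456664), on a VISTA enhancer, was open in 49.4% of the cells of set 1 and in 47.2% of set 2, and the other Fos member 12608 bp downstream of the start in 34.5% and 37.9%. Egr1 had 2 members, 4416 bp upstream and 26635 bp downstream, the latter with 40.8% and 31.1% of cells (log2 ratio 0.60). Nr4a1, Jun, Fosb, Ier2 and Atf3 had 1 each, with log2 ratios between -0.35 and 0.06.

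Lineage genes were nearest to few members. The lists of myeloid, lymphoid, and erythroid and megakaryocyte genes had 1 member each, at Cebpe (28.3% of cells), Ptprc (25.9%) and Vwf (23.6%), of 82, 74 and 68 peaks. Ptprc, on the lymphoid list, encodes CD45, by which the authors traced donor cells also among stem and progenitor cells. It is therefore not particular to lymphoid cells. TAZ and Hippo genes had 0 of 56 and genes of other tissues 0 of 51 peaks. The shares of 1.22%, 1.35% and 1.47% for the lineage lists stand beside 1.30% of all non-promoter peaks, and with lists of this size 1 peak decides them.

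Genes could have several members. The 1000 members had 887 nearest genes, of which 793 had 1 member, 75 had 2 and 19 had 3. Among the latter were Chd2, with members in 451 to 655 cells, Dnmt3a (378 to 567 cells), Irf2bpl (350 to 675 cells), Gse1 (357 to 719 cells) and Id2 (378 to 405 cells). Chd2 encodes a chromatin remodeller and Dnmt3a a DNA methyltransferase. Within 25000 bp of another member lay 103 members (10.3%). RefSeq regulatory elements were overlapped by 30 members (3.0%), against 0.477% of other non-promoter peaks, and by 2.4% of members against 1.58% of others in peaks of 1435 to 2740 bp.

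Except for CTCF, a far larger share of members than of other non-promoter peaks held each word, and for most words the shares came close to each other at like width. In whole peaks the PU.1 word was present in 25% of members and in 10.4% of other non-promoter peaks, the AP-1 word in 49.7% and 20.2%, the GATA word in 59.3% and 24.5% and the RUNX word in 80.6% and 41.8%. In peaks of 1435 to 2740 bp the same shares were 23% and 22.9% for PU.1, 48.2% and 45.0% for AP-1, 58.4% and 54.8% for GATA, 78.4% and 79.7% for RUNX and 64.6% and 62.1% for TEAD (CATTCC). Over all peaks of the table the words were present in 11.1%, 21.8%, 27.1%, 44.6% and 30.2%.

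The SP1 word (GGGCGG) differed also at like width, with 61.0% of members, 46.1% of other non-promoter peaks and 92.1% of promoter peaks. Its letters read backwards, which keep the base composition, gave 60.0%, 47.1% and 92.5%. The reversed word, GGCGGG, can lie on the same bases as the word, as in GGGCGGG. This control therefore cannot tell the SP1 word from base composition. The word of other ETS factors was present in 5.8% of members and in 3.63% of other non-promoter peaks of like width, that of NRF1 (GCATGCGC) in 5.2% and 3.68% and CCAAT in 89.4% and 86.3%. Read backwards, the ETS word was present in 7.4% and 8.76%, that of NRF1 in 0.2% and 0.158% and CCAAT in 89.0% and 86.4%. Reversal takes the CpG out of the ETS word and adds CpG to that of NRF1, so it does not keep CpG content. At like width the median CpG ratio was 0.305 in members and 0.252 in other non-promoter peaks. The share over all peaks was 26.1% for SP1, 2.71% for other ETS factors, 2.33% for NRF1 and 50.8% for CCAAT.

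For CTCF, the protein of insulators, the share and the density differed, as they did for PU.1, AP-1, GATA, RUNX and TEAD. The CTCF word was present in 7.8% of members, 6.60% of other non-promoter peaks and 6.03% of all peaks. Per 10 kb, however, members held 0.365 CTCF matches, other non-promoter peaks 1.13 and promoter peaks 0.204. In the central 300 bp of a peak the CTCF word was present in 0.5% of members and in 5.58% of other non-promoter peaks. At like width the difference was small, with 6.6% of members and 8.28% of other non-promoter peaks. Read backwards, the word was present in 0.1% of members.

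**Figure D4:**
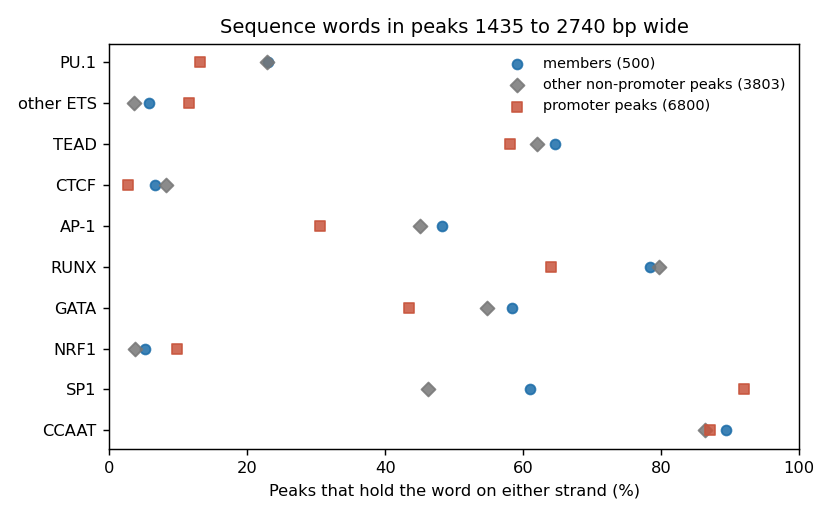
Share of peaks of 1435 to 2740 bp that hold each of 10 words on either strand (%, x axis) for 500 members, 3803 other non-promoter and 6800 promoter peaks. Members and other non-promoter peaks lie close together for most words, and SP1 separates them with 61.0% and 46.1%.

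Few members differed by 2-fold between the barcode sets. Their log2 ratios had a median of 0.03, and 90% lay between -0.51 and 0.59. A ratio of at least 2-fold was reached by 8 members (0.8%) in favour of set 1 and by 2 (0.2%) in favour of set 2, against 5.2% and 6.85% of the 79625 peaks with at least 20 counts. Most of those peaks hold far fewer counts than a member, which held at least 817, so their ratios scatter more. Among the 5859 promoter peaks with at least 817 counts, 0.0853% and 0.0171% passed 2-fold, and 90% of their log2 ratios lay between -0.32 and 0.30. The members thus spread more widely than promoter peaks above the same minimum.

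The members past 2-fold were these. The largest ratio belonged to the peak chr16:91969269-91970856, 38375 bp upstream of Atp5o, a subunit gene of the mitochondrial ATP synthase. It was open in 35.3% of the cells of set 1 and in 11.6% of those of set 2, at 64.4 and 18.9 CPM, a log2 ratio of 1.71 (counting interval 1.54 to 2.00). With all cells thinned to 4899 counts it was open in 22.0% and 8.04%. Its bases are shown above with their 2 AP-1 words.

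The others in favour of set 1 had log2 ratios of 1.17 to 1.38. The peak 34778 bp upstream of B4galt5, which encodes a galactosyltransferase, was open in 32.0% and 12.3% of cells, and the peak in a coding exon of Soga1 nearest to Dsn1 in 33.7% and 13.2%. The peak 5498 bp upstream of Asic1, an ion channel gene, was open in 38.5% and 15.7%. The peak nearest to Mkln1, 28858 bp downstream of its start, was open in 33.5% and 15.6%. Its centre is intergenic, and it overlaps Podxl, a sialomucin gene. The peak 12038 bp upstream of the homeobox gene Nkx2-3 was open in 36.4% and 18.4%. The peaks nearest to Ccser2 (32.3% and 14.3%) and Eva1a (31.5% and 13.5%) complete the 8. In thinned cells the log2 ratio fell below the 2-fold threshold at Nkx2-3 (0.88) and Ccser2 (0.93), and with each peak counted once per cell it did so at Nkx2-3 (0.90). Next below the threshold came the peaks near Baiap2 (log2 ratio 0.97) and Id1 (0.95), the latter an inhibitor of basic helix-loop-helix factors, with 33.5% and 18.6% of cells.

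In favour of set 2 stood the peak 16112 bp upstream of Srgn, the gene of the proteoglycan serglycin, in an intron of Kif1bp. It was open in 16.7% of the cells of set 1 and in 34.0% of those of set 2, at 25.9 and 66.8 CPM, a log2 ratio of -1.33 (counting interval -1.56 to -1.18). Thinned, it was open in 8.28% and 23.8%. The peak 13126 bp upstream of Grtp1 was open in 23.1% and 39.2% of cells (log2 ratio -1.13, and -0.81 with each peak counted once per cell), and in 11.7% and 27.1% of thinned cells. The next were the peaks near St6galnac5 (-0.89), AA467197 (-0.87), Atxn7 (-0.87) and Adora3 (-0.82), and then those near Mdga1, Antxr2, 4930512M02Rik and Slc35b4 with -0.82 to -0.77. The peak near Adora3 was the most widely open of the 20 named by their ratio, in 584 cells.

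The classes of members differed little in their median ratio but more in their spread. The median log2 ratio was 0.03 for starts of non-coding genes, 0.01 for RefSeq mRNA starts, -0.04 for other transcripts of coding genes, 0.03 for members elsewhere in coding genes and 0.06 for those elsewhere between them. The quartiles were -0.11 and 0.20 at starts of non-coding genes, and -0.23 and 0.26 elsewhere in coding genes. Of the 10 members past 2-fold, 8 lay at no start, in coding genes (2) or between them (6), the classes that hold 30.6% and 38.5% of all members.

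**Figure D5:**
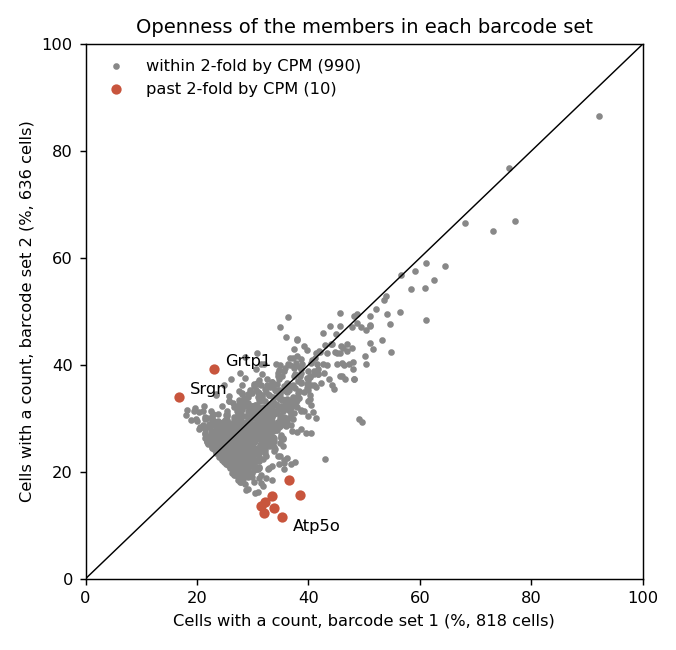
Share of cells with a count in barcode set 1 (%, x axis, 818 cells) and in barcode set 2 (%, y axis, 636 cells), 1 point per member, with the line of equal shares. The 990 members within 2-fold by CPM lie along the line, and the 10 members past 2-fold, in red, include Atp5o at 35.3% and 11.6% and Srgn at 16.7% and 34.0%.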

How the data were processed

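Single-cell ATAC-seq of LT-HSCs was performed with the Chromium chemistry. The authors processed the reads with Cell Ranger ATAC 1.2.0 (mm10, GRCm38, per the submitters' processing notes) and deposited counts of cut sites per peak and cell barcode, without normalization. Starts of peaks, which the table counts from 0, are printed as counted from 1. How reads with several matches were treated is not given in the sources used here. A further table, whose rows carry no peak names, was not used. The members and the gene lists were chosen with earlier results of these data known.

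Peaks were annotated with GENCODE M21, and with RefSeq GRCm38.p6 for sequence, tRNA genes, mRNA starts and regulatory elements. Distances to starts are from the peak centre where a direction is given, otherwise from its edge. A start within 1000 bp made a promoter peak. Repeats were taken from the soft-masked genome, ribosomal and mitochondrial matches from blastn (BLAST+ 2.17.0, at least 100 bp at 80% identity) and copies from megablast (at least 200 bp at 90% identity). Words were searched on both strands, and each word read backwards served as its control. The ratio between barcode sets is the log2 ratio of CPM plus 1, over library totals, for peaks with at least 20 counts, and a call is a ratio of at least 2-fold. Intervals are exact 95% Clopper-Pearson intervals. Those of a ratio were computed from CPM without the added 1, so the printed ratio need not lie at their centre. Cells were thinned to 4899 counts, the depth that 90% of them reached, leaving out 69 cells of set 1 and 76 of set 2. No cell was otherwise removed and no doublet caller was run. No p-value is given, since each group is 1 pooled sample and cells and peaks are not replicates. The functions were tested on simulated data. Python 3.11.15, NumPy 2.4.6, pandas 2.3.3 and SciPy 1.17.1 were used.

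Named members are the 20 with the most cells, the 10 with the largest and the 10 with the smallest ratio, those with rRNA or mitochondrial matches or over 5 counts per open cell, up to 4 per gene list by cells, and ranks 999 to 1002. Further members named for copies, tRNA genes, miRNA hairpins, regulatory elements, several members per gene or counts above their neighbours in rank, and those over 4 in a list, were named after their values were seen, as was the comparison with peaks of like width, which are the 1435 to 2740 bp between the quartiles of the members' width. Some members that this rule names are not reported here.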

Additional observations from a re-analysis of the deposited data

How the results depend on the processing

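No paired analysis was possible because every group is a single pooled sample, and for the same reason no replicate could be left out. Of 94 recomputed summary values 53 stayed within the interval of the main value, or within 1.5 times a count. Chosen in 7 other ways, 739 to 984 of the members were chosen again, and ranked by cells per kb of width 400. The median width became 1831.5 bp with a promoter window of 5000 bp, 1730.5 bp with starts of all GENCODE transcripts, 1043 bp per kb of width and 2005 bp with cells of at least 3 counts. The median distance became 25603 bp with the 5000 bp window and 23530 bp per kb of width, and the intergenic share 48.5% with starts of all GENCODE transcripts. The share at another start or tRNA gene became 26.6% with the 5000 bp window, 5.9% with starts of all GENCODE transcripts, which removes most of them by construction, and 17.9% per kb of width. The members' share of counts became 4.84% with each peak counted once per cell, 5.96% in thinned cells and 5.51% without members over 5 counts per open cell.

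Of the members past 2-fold, 7 in favour of set 1 and 1 in favour of set 2 (Srgn) were left with 1 count per open cell and peak, where Nkx2-3 and Grtp1 fell below. In thinned cells there were 8, of which 6 were shared (Nkx2-3 and Ccser2 were lost), and 3. In the 8 alternatives, the last of them (totals without rDNA) chosen after seeing the data, all 168 ratios of 21 named peaks kept their sign, and 20 of them lay outside the counting interval of the main value. Causes of these shifts were not tested.

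In the middle 300 bp, the share of members with a word became 6.2% for PU.1, 1.3% for other ETS, 0.5% for CTCF, 15.2% for TEAD, 25.7% for RUNX, 10.8% for AP-1, 13.4% for GATA, 1.0% for NRF1, 24.3% for SP1 and 29.8% for CCAAT. Among other non-promoter peaks it was, in the same order, 7.52%, 0.602%, 5.58%, 14.8%, 30.2%, 12.9%, 14.5%, 0.553%, 8.79% and 29.9%. Members thus had no larger share there for PU.1, CTCF, RUNX, AP-1, GATA and CCAAT, unlike in whole peaks. With members ranked per kb of width the members' share in whole peaks became, in the same order, 15.1%, 3.3%, 5.4%, 38.7%, 59.5%, 33.6%, 37.1%, 3.3%, 34.2% and 69.0%. The median number of members per cell became 301 (303 in set 1 and 298 in set 2) at 9798 counts per cell and 289 (294 and 284) without thinning. Depth limits the sets' ratios of single members, whose counting intervals are too narrow because counts come in pairs.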
